A study of Rattus norvegicus with 12 samples.

Results

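The collagen chain genes are the genes that code for the alpha chains of the collagens. They were taken as every gene symbol of the form Col, a number, a and a number whose counts summed to 50 or more over the 12 libraries, and 39 of 44 such symbols qualified, of 24648 genes in the table. By collagen class there were 11 fibrillar chains, 7 basement membrane chains (type IV, XV and XVIII), 9 fibril-associated chains and 12 others. The members nearest to the minimum were Col9a1 with a summed count of 67 and Col2a1 with 72, and the nearest symbol under it was Col25a1 with 40. All 39 passed the filter on low counts, so none dropped out of the tests.

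Collagen chains are made mostly by fibroblasts and related cells, wind into triple helices of equal or of different chains, and are secreted. Fibrillar collagens form the load-bearing fibrils of the connective tissue around and between muscle fibres, and fibril-associated collagens sit on the surface of those fibrils. Type IV collagen forms the sheet-like network of the basement membrane that encloses each muscle fibre and each capillary, and type VI collagen forms fine filaments next to it.

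The libraries are RNA-seq of skeletal muscle of male rats aged 540 days. They came from offspring of dams under maternal protein restriction, which per the series text was a diet with 6% protein during gestation and lactation, or from offspring of control dams. There were 3 libraries in each of 4 groups: restriction in set 2 (title numbers 32, 33 and 35), control in set 2 (23, 28 and 29), restriction in set 1 (12, 13 and 15) and control in set 1 (3, 8 and 9). The series text names soleus and extensor digitorum longus muscles, but the labels used here tie neither to a library, and the sets go by number. Nor do the labels say whether libraries are of separate animals, dams or litters. The p-values therefore cover only how these libraries scatter, some of which may be technical, and 1 animal may have given libraries to both sets.

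Libraries held 22829692 to 38313704 counts. Summed CPM (counts scaled to library size) of 8 slow fibre markers ran from 1666 to 5458 in set 2 and from 91192 to 105671 in set 1, and those of 9 fast fibre markers from 136537 to 164149 in set 2 and from 3732 to 10546 in set 1. The level in CPM, scaled by the TMM method, is used below. A gene counts as called where edgeR's quasi-likelihood test gave a Benjamini-Hochberg adjusted p under 0.05 over all 14225 genes tested. Without gene lengths, levels were compared between libraries and not between genes. In such whole-muscle RNA, fewer cells of a type and less RNA per cell cannot be told apart. A count of 0 allows up to 0.0793 to 0.161 CPM, depending on the library (3 counts, counting error only).

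Collagen chains made up a small share of the RNA counted. The 39 members together took 0.0737% ± 0.00347 of all counts in restriction libraries of set 2 and 0.0607% ± 0.00850 in control libraries of set 2 (SD, n = 3 each). They took 0.106% ± 0.0305 in restriction libraries of set 1 and 0.0980% ± 0.0313 in control libraries of set 1 (SD, n = 3 each). The share was most even in set 2, and within set 1 restriction library 12 and control library 9 had about as little as the set 2 libraries. Fibrillar chains took 0.0256% ± 0.00394 in restriction and 0.0201% ± 0.00381 in control libraries of set 2, against 0.0472% ± 0.0195 in restriction and 0.0429% ± 0.0250 in control libraries of set 1 (SD, n = 3 each). Basement membrane chains took between 0.0198% and 0.0286% in set 2 and between 0.0231% and 0.0319% in set 1. No test was made on these sums.

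**Figure D1:**
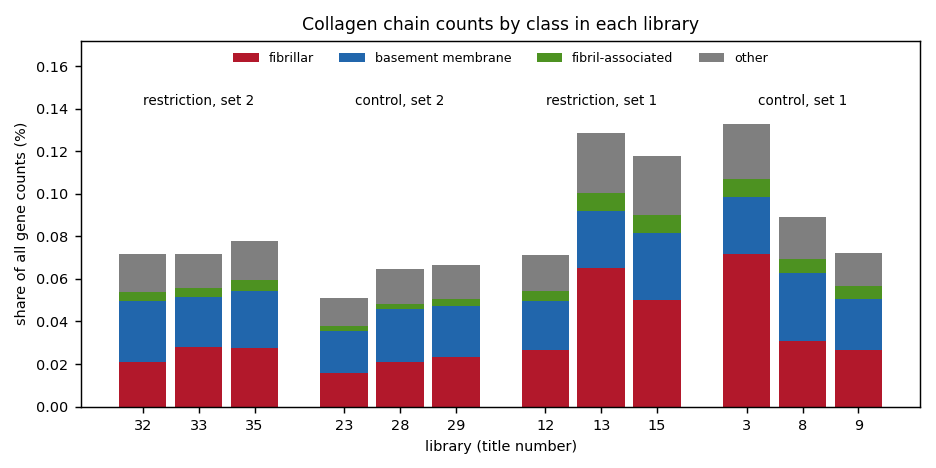
Share of all gene counts (percent, y axis) taken by the 39 collagen chains in each library, stacked by class; x axis, libraries by title number in 4 groups. Restriction library 13 and control library 3 of set 1 carry the tallest fibrillar segments (0.0651% and 0.0717%), while the basement membrane segment varies little.

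Promoter sequence was at hand for 31 of the 39 members, in RefSeq windows of build GRCr8, a build other than the Rnor_6.0 of the counts. Windows of 250 bases before the start were searched on both strands for 3 motifs, where matches may overlap each other. The CCAAT box was searched as the letters CCAAT, and was found in 34.0% of all 33469 promoters of that length and in 10 of the 31 members. The GC box, as the letters GGGCGG, was found in 30.5% of promoters and in 17 members. The TATA box, as the letters TATAAA, was found in 12.9% of promoters and in 4 members. A match is a description of letters, not a site. The stretches below belong to chains that the results turn on. Col4a1 and Col4a2 start head to head on chromosome 16, and the 76 bases between their starts (chr16:84885521-84885596, plus strand, that of Col4a1) lie before both. Col1a2 is shown since its counts did not follow those of its partner Col1a1, which has no entry. Its stretch is the first 100 bases of the window of 250, the end farthest from the start (chr4:33518307-33518406, plus strand). Col8a2 (chr5:143870519-143870768, plus strand) and Col7a1 (chr8:118483114-118483363, plus strand) are the 250 bases before the starts of a chain that fell and one that rose in set 2. Capitals mark any of the 3 motifs on either strand.
Col4a1 and Col4a2: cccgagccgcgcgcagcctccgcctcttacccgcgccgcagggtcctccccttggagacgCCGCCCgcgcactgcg
Col1a2: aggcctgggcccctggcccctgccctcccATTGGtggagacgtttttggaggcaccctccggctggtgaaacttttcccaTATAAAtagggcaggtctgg
Col8a2: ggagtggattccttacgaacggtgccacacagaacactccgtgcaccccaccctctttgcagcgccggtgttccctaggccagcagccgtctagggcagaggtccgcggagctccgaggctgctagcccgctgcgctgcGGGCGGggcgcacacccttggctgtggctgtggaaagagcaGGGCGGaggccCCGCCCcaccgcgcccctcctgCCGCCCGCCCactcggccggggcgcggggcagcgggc
Col7a1: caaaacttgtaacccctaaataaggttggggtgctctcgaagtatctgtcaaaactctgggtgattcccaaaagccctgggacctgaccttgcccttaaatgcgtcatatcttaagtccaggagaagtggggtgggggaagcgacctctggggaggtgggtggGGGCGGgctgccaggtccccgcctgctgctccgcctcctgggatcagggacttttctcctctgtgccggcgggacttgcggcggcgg
The Col4a1 and Col4a2 interval held 1 GGGCGG, read on the opposite strand, and neither other motif, with 78.9% G and C. Of all windows of 76 bases before a start, 18.1% held GGGCGG. The Col1a2 stretch held 1 CCAAT, on the opposite strand, and 1 TATAAA. The Col8a2 window held 5 GGGCGG and the Col7a1 window held 1, and neither held a CCAAT or a TATAAA.

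In set 2 against set 1, 5 fibrillar and 3 fibril-associated chains were lower, led by Col14a1 and Col3a1, and no basement membrane chain passed the test. Of the 39 chains 16 were called, which is close to the 39.5% of all genes tested that were called. Of these 16, 4 were higher in set 2 (background 19.9%) and 12 were lower (background 19.6%). The median log2 fold change was -0.28 over the 39 and -0.01 over all genes tested. By class, 0 fibrillar chains were higher and 5 of 11 lower, 0 of 7 basement membrane chains were called, 3 of 9 fibril-associated chains were higher and 3 lower, and of 12 others 1 was higher and 4 were lower. In 3 chains, Col14a1, Col3a1 and Col8a2, all 6 libraries of set 2 lay below all 6 of set 1, where 9.77% of all genes tested did so, and in 0 chains they lay above (background 8.97%).

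**Figure D2:**
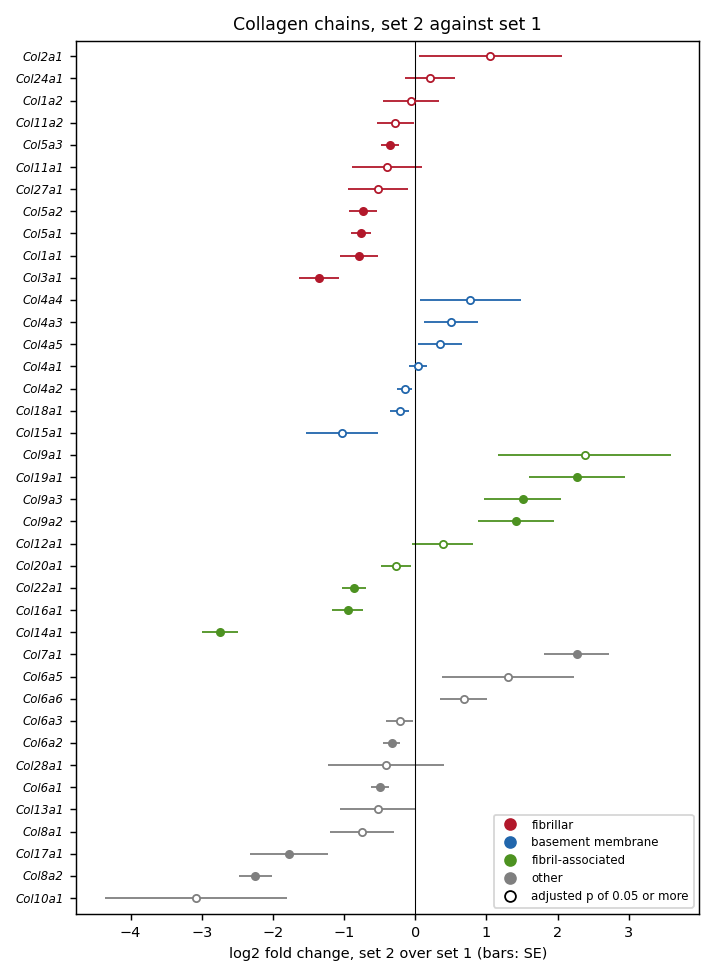
Log2 fold change of each collagen chain in set 2 over set 1 (x axis; bars are the SE), by class and in order of size within a class. Filled points have an edgeR adjusted p under 0.05: 5 fibrillar, 6 fibril-associated, 5 other and 0 basement membrane chains.

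Types I and III are the main fibrillar collagens of muscle connective tissue. Col3a1, the only chain of type III, had 48.3, 74.8 and 65.0 CPM in restriction and 60.8, 66.2 and 78.3 CPM in control libraries of set 2. In set 1 it had 92.9, 252 and 195 CPM in restriction and 274, 98.5 and 96.2 CPM in control libraries. No library of set 2 reached the lowest of set 1, and within set 1 libraries 3, 13 and 15 stood above the other 3. The log2 fold change was -1.36 ± 0.28 (SE, with an adjusted p of 0.00151 by edgeR), and with control 3 and restriction 13 left out it was -0.85 ± 0.20.

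Col1a1, the chain that supplies most of type I collagen, had 71.9, 107 and 80.1 CPM in restriction and 67.0, 65.6 and 72.3 CPM in control libraries of set 2. In set 1 it had 81.3, 204 and 119 CPM in restriction and 229, 87.9 and 78.2 CPM in control libraries. The sets overlapped, and the same libraries 13 and 3 held the highest values. Col1a1 was called at -0.80 ± 0.26 (SE, with an adjusted p of 0.0277 by edgeR), and without control 3 and restriction 13 it was -0.24 ± 0.15 and no longer called. Col1a2, the partner chain of Col1a1, gave another picture, with 9.06, 9.53 and 13.2 CPM in restriction and 2.36, 3.64 and 13.5 CPM in control libraries of set 2. In set 1 it had 6.54, 5.60 and 12.7 CPM in restriction and 14.8, 8.27 and 4.47 CPM in control libraries. Its values scattered about as widely within groups as between them, and its log2 fold change of -0.06 ± 0.39 did not pass the test.

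Type V collagen starts fibrils of type I and limits their width. Its chains Col5a1 (-0.76 ± 0.15), Col5a2 (-0.74 ± 0.20) and Col5a3 (-0.35 ± 0.13) were all called lower in set 2 (log2 fold change with SE). Col5a3, with the smallest of these changes, had 30.1, 23.5 and 27.1 CPM in restriction and 20.6, 30.9 and 27.0 CPM in control libraries of set 2. In set 1 it had 28.8, 35.4 and 39.1 CPM in restriction and 33.6, 36.3 and 30.2 CPM in control libraries. Libraries 32 and 28 of set 2 overlapped the low end of set 1, and the call had an edgeR adjusted p of 0.0403. The other fibrillar chains, Col2a1, Col11a1, Col11a2, Col24a1 and Col27a1, were not called, with values between -0.52 and 1.06.

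No basement membrane chain was called. Col4a1, which with Col4a2 makes the widespread form of type IV collagen, had 146, 121 and 143 CPM in restriction and 106, 139 and 129 CPM in control libraries of set 2, and 117, 114 and 151 CPM in restriction and 105, 157 and 120.1 CPM in control libraries of set 1. Its log2 fold change was 0.03 ± 0.13 (SE), with the sign turning to -0.07 under scaling by library size alone, which moved the median of all genes to -0.11. Col4a2 had 118, 92.8 and 94.6 CPM in restriction and 113, 89.0 and 94.6 CPM in control libraries of set 2, and 99.1, 110.3 and 113 CPM in restriction and 111, 131 and 104 CPM in control libraries of set 1. The libraries of set 2 and set 1 overlapped for both chains, and 4 of 6 libraries of set 2 were below the lowest of set 1 for Col4a2. Col18a1, whose end fragment is endostatin, had 18.9, 13.1 and 17.4 CPM in restriction and 18.7, 15.8 and 13.8 CPM in control libraries of set 2, and 17.2, 20.1 and 24.6 CPM in restriction and 18.8, 17.1 and 16.3 CPM in control libraries of set 1. Its -0.22 ± 0.14 and the -0.15 ± 0.11 of Col4a2 did not pass the test (log2 fold change with SE). The scarcer chains of this class, Col4a3, Col4a4, Col4a5 and Col15a1, had values between -1.02 and 0.78 with errors of 0.31 to 0.71, too wide to show a change of moderate size.

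**Figure D3:**
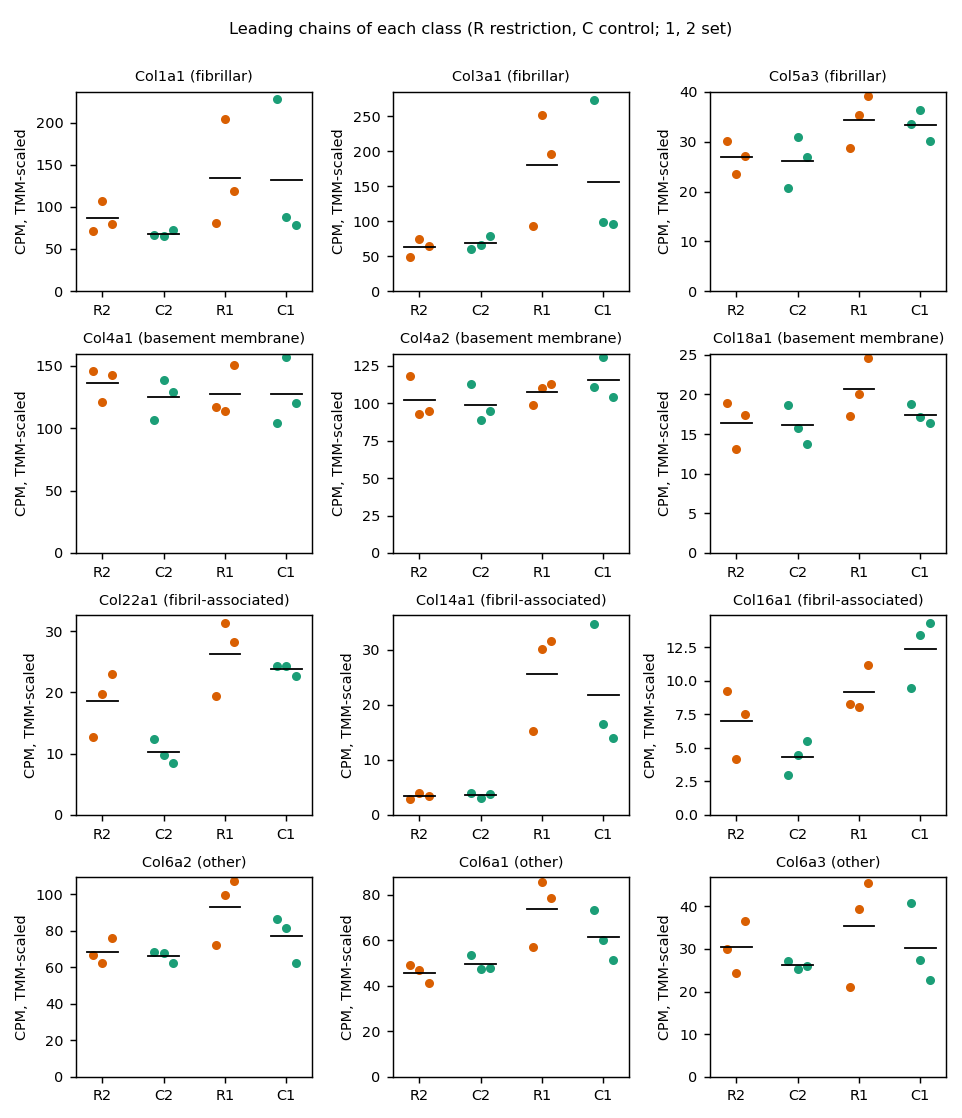
TMM-scaled CPM (y axis, from 0) of the 3 chains with the highest mean CPM in each class, in restriction (R2) and control (C2) libraries of set 2 and restriction (R1) and control (C1) libraries of set 1. Points are libraries and lines are group means. Col3a1 and Col14a1 show the separation between sets, Col4a1 and Col4a2 none.

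Fibril-associated chains moved both ways. Col14a1, which binds type I fibrils and is found in tendon and fascia, had 2.95, 4.01 and 3.39 CPM in restriction and 3.92, 3.01 and 3.77 CPM in control libraries of set 2. In set 1 it had 15.2, 30.0 and 31.6 CPM in restriction and 34.6, 16.5 and 14.0 CPM in control libraries. Every set 2 library was far under the lowest of set 1. Its log2 fold change of -2.75 ± 0.25 (SE, with an adjusted p of 1.42e-06 by edgeR) was the most negative of the called chains.

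Col22a1, a collagen of the myotendinous junction, had 12.8, 19.7 and 23.1 CPM in restriction and 12.4, 9.76 and 8.40 CPM in control libraries of set 2. In set 1 it had 19.4, 31.4 and 28.2 CPM in restriction and 24.2, 24.4 and 22.7 CPM in control libraries. Restriction libraries 33 and 35 of set 2 overlapped set 1, and the controls did not. Col22a1 fell by 0.87 ± 0.17 on the log2 scale (SE, with an adjusted p of 9.48e-04 by edgeR). Col16a1 had 9.26, 4.18 and 7.56 CPM in restriction and 2.95, 4.45 and 5.53 CPM in control libraries of set 2, and 8.29, 8.06 and 11.1 CPM in restriction and 9.44, 13.4 and 14.3 CPM in control libraries of set 1. It fell by 0.95 ± 0.22 on the log2 scale (SE), with restriction library 32 of set 2 inside the range of set 1.

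The 3 fibril-associated chains that rose in set 2 were all scarce. Col19a1, a chain found in basement membrane zones, had 2.05, 2.09 and 1.51 CPM in restriction and 0, 0.891 and 0.800 CPM in control libraries of set 2, and 0.159, 0.230 and 0.325 CPM in restriction and 0.302, 0.221 and 0.0529 CPM in control libraries of set 1. All set 2 libraries other than control 23 lay above all of set 1, and the log2 fold change was 2.28 ± 0.67 (SE, with an adjusted p of 0.0149 by edgeR). Col9a3 had 1.11, 0.480 and 0.910 CPM in restriction and 1.5, 0.742 and 0.333 CPM in control libraries of set 2, and 0.198, 0.384 and 0.285 CPM in restriction and 0.168, 0.517 and 0.212 CPM in control libraries of set 1. Col9a3 and Col9a2 code for chains of type IX, best known from cartilage, and rose by 1.51 ± 0.54 and 1.42 ± 0.54 on the log2 scale (SE), with adjusted p values of 0.0382 and 0.0492. Each of these type IX calls held in 3 of 12 fits that left out 1 library.

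Of the 3 chains of the usual type VI trimer, 2 were called, with small changes. Col6a2 had 66.5, 62.5 and 76.0 CPM in restriction and 68.2, 67.7 and 62.5 CPM in control libraries of set 2, and 72.4, 99.8 and 107 CPM in restriction and 86.5, 81.7 and 62.3 CPM in control libraries of set 1. Col6a1 had 49.3, 46.8 and 41.3 CPM in restriction and 53.5, 47.2 and 47.9 CPM in control libraries of set 2, and 56.8, 85.4 and 78.7 CPM in restriction and 73.3, 59.9 and 51.3 CPM in control libraries of set 1. Both were called lower in set 2, Col6a1 at -0.50 ± 0.12 and Col6a2 at -0.33 ± 0.12, and both sets met at the low end of set 1. Col6a3, the largest chain of the usual type VI trimer, had 30.0, 24.4 and 36.6 CPM in restriction and 27.1, 25.2 and 26.1 CPM in control libraries of set 2, and 21.1, 39.3 and 45.6 CPM in restriction and 40.7, 27.4 and 22.6 CPM in control libraries of set 1, and was not called at -0.22 ± 0.19.

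Col8a2, a short-chain collagen of type VIII, had 4.53, 4.56 and 4.17 CPM in restriction and 3.16, 2.82 and 2.77 CPM in control libraries of set 2, and 14.6, 22.0 and 14.0 CPM in restriction and 28.0, 12.8 and 10.9 CPM in control libraries of set 1. Every set 2 library was under the lowest of set 1, and it fell by 2.25 ± 0.23 on the log2 scale (SE, with an adjusted p of 4.12e-06 by edgeR). Col7a1, which forms the anchoring fibrils of skin, had 25.8, 10.5 and 14.8 CPM in restriction and 4.51, 19.9 and 17.0 CPM in control libraries of set 2, and 4.68, 2.11 and 2.52 CPM in restriction and 0.571, 5.39 and 3.86 CPM in control libraries of set 1. Control library 23 of set 2 lay within set 1 and the other 5 lay above it. Col7a1 rose by 2.27 ± 0.46 on the log2 scale (SE, with an adjusted p of 0.00142 by edgeR). Col17a1, a transmembrane collagen of hemidesmosomes, had 0.168, 0.206 and 0.0314 CPM in restriction and 0.322, 0.297 and 0.267 CPM in control libraries of set 2, and 0.516, 0.806 and 0.244 CPM in restriction and 0.941, 1.14 and 0.661 CPM in control libraries of set 1. It fell by 1.78 ± 0.55 on the log2 scale (SE, with an adjusted p of 0.0196 by edgeR), and restriction library 15 of set 1 overlapped set 2.

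The remaining chains were not called between sets. Among the fibril-associated ones Col9a1, Col12a1 and Col20a1 had log2 fold changes from -0.27 to 2.38, and among the others Col6a5, Col6a6, Col8a1, Col10a1, Col13a1 and Col28a1 had values from -3.09 to 1.30. Col10a1, a collagen of growth cartilage, had the most negative of all, -3.09 ± 1.28 (SE, with an adjusted p of 0.0701 by edgeR), and was the 1 chain that DESeq2 called and edgeR did not. It was scarce and uneven, with a summed count of 110. In set 1 restriction 13 held 51 of these, control 8 held 23 and control 9 held 0, and in set 2 restriction 32 held 15. In the gene order of GRCr8, 6 pairs of members are neighbours. Both chains were called lower in Col6a1 with Col6a2 and in Col3a1 with Col5a2. Col19a1 was called and its neighbour Col9a1 was not, and in Col4a2 with Col4a1, Col4a4 with Col4a3 and Col6a6 with Col6a5 neither was.

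The set comparison was also read within each diet. Within the restriction libraries 8 chains were called (3 higher and 5 lower, background 30.0%), and within the control libraries 8 (1 higher and 7 lower, background 20.8%). Col14a1, Col3a1, Col5a1, Col7a1 and Col8a2 were called in both. With control 3 and restriction 13 of set 1 left out, 9 chains were called (background 31.3%), of which 8 were among the 16, and Col6a6 was added at 1.13 ± 0.35. Leaving out restriction 13 alone gave 10 (background 33.5%). Over the 12 fits that each left out 1 library, the calls of Col1a1 held in 7, those of Col5a3 and Col6a2 in 4 each and that of Col17a1 in 10.

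Ratios of 2 chains within a library do not depend on scaling. The count ratio of Col3a1 to Col1a1 was 0.672, 0.701 and 0.812 in restriction and 0.906, 1.01 and 1.08 in control libraries of set 2, against 1.14, 1.23 and 1.64 in restriction and 1.20, 1.12 and 1.23 in control libraries of set 1. Every set 2 library was under every set 1 library, and libraries 3 and 13, with the highest levels of both genes, had ratios within the range of the rest of set 1. The mean log2 ratio was lower in set 2 by 0.56. A two-sided exact permutation test within diets gave p = 0.005, the smallest p that its 400 assignments can give. After adjustment over the 8 ratio tests it was 0.04. The test took all libraries as independent, so this p does not allow for 1 animal giving libraries to both sets. The other 7 ratio tests did not pass, with raw p values from 0.075 to 0.56 and adjusted ones from 0.30 to 0.56.

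Chain pairs of one trimer differed in how closely they kept to a fixed ratio. The count ratio of Col1a1 to Col1a2 ran from 5.36 in control library 29 to 36.5 in restriction library 13, a range of 6.81 times, and its SD within groups was 0.86 on the log2 scale. Col1a2 had few counts, 44 to 441 a library, with a mean of 8.64 CPM, where that of Col1a1 was 105 CPM. These means bear on how precisely each was counted. Without gene lengths they do not compare the amounts of the 2 transcripts. Genes at the level of Col1a2 had a median SD of 0.33, against 0.20 at the levels of the other chains in these pairs. Why Col1a2 had so few counts was not tested. For Col4a1 to Col4a2, neighbours that start head to head, that SD was 0.24, with ratios from 0.940 to 1.56. For Col6a1 to Col6a2, which are also neighbours, the SD was 0.16, with ratios from 0.543 to 0.856, and for Col3a1 to Col1a1 it was 0.17. Within set 2 the ratio of Col1a1 to Col1a2 was 7.94, 11.2 and 6.08 in restriction and 28.4, 18.0 and 5.36 in control libraries. The 2 controls with the highest ratios, 23 and 28, were those with the least Col1a2, at 2.36 and 3.64 CPM, while their Col1a1 was close to that of control 29.

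**Figure D4:**
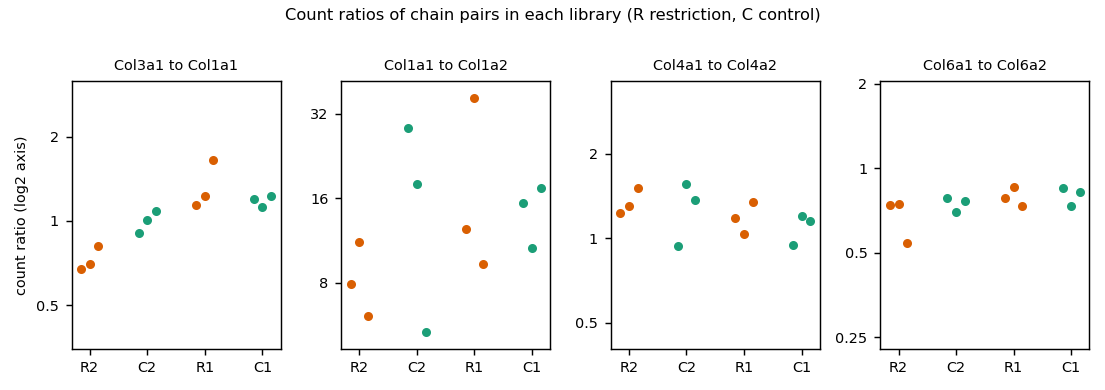
Count ratio of 4 chain pairs in each library (y axis, log2 scale), in restriction (R2) and control (C2) libraries of set 2 and restriction (R1) and control (C1) libraries of set 1. Col3a1 to Col1a1 separates the sets, at 0.672 to 1.08 in set 2 and 1.12 to 1.64 in set 1. Col1a1 to Col1a2 spreads most in C2 and R1 (SD 1.24 and 1.03 on the log2 scale) and less in R2 and C1 (0.44 and 0.37).

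Collagen chains varied much between libraries of one group. The SD of log2 CPM within groups was above the median of genes at a like level (within 0.5 log2 CPM) in 29 of 39 chains, and in 10 of 11 fibrillar ones. It was 0.56 for Col1a1 and 0.60 for Col3a1, where genes at their levels had a median of 0.20. Col4a2 had the lowest, at 0.17, also against a median of 0.20.

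The diet comparison asks whether the dams' protein restriction left a mark on collagen chains in the aged offspring. No chain was called by edgeR in set 2, in set 1, over both sets or for the difference of the diet effect between sets, and DESeq2 gave 0 in each as well. Of all genes tested 0% were called in set 2, 0.00703% in set 1, 0.00703% over both sets and 0% for the difference. At an unadjusted p under 0.05 there were 7 of 39 chains in set 2 (8.59% of all genes tested), 1 in set 1 (7.54%), 4 over both sets (7.83%) and 2 for the difference (9.50%). With 3 libraries a group, a lack of calls does not show that values were equal.

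In set 2 the values leaned one way. Of 39 chains 31 had a log2 fold change above 0, with a median of 0.40, while 48.5% of all genes tested were above 0, with a median of -0.01. Fibrillar chains had 10 of 11 above 0 with a median of 0.69, fibril-associated ones 7 of 9 with 0.65, basement membrane ones 6 of 7 with 0.09, and others 8 of 12 with 0.13. Leaving out 1 library at a time left 27 to 31 of 39 above 0. The fibrillar median was 0.32 without control 23. Without restriction 32 the count was 27 of 39, with 3 of 7 basement membrane chains (median -0.08) and 6 of 12 others (median -0.03) above 0. Groups did not overlap in 10 chains of set 2, where 12.7% of all genes tested did so. In 9 of them all restriction libraries were above all controls (background 7.01%), namely Col11a1, Col11a2, Col5a1, Col4a3, Col19a1, Col20a1, Col22a1, Col6a5 and Col8a2, and in Col17a1 they were below (background 5.72%). These are descriptions, since none of the 10 passed the test.

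In set 1 the values ran from -1.56 for Col15a1 to 3.86 for Col9a1. Of 39 chains 25 were above 0 with a median of 0.08, and 49.5% of all genes tested were above 0. Fibrillar chains had 10 of 11 above 0 with a median of 0.15, fibril-associated ones 5 of 9 with 0.08, basement membrane ones 3 of 7 with -0.10, and others 7 of 12 with 0.15. These counts depended on single control libraries. Without control 9 the count was 19 of 39 with a median of -0.01, and 5 of the 11 fibrillar chains were above 0. Without control 3 it was 26 of 39 with a median of 0.39, and all 11 fibrillar chains were above 0 with a median of 0.71. The groups did not overlap in 1 chain, Col9a2, with 0.436, 0.230 and 0.0407 CPM in restriction and 0.470, 0.775 and 0.555 CPM in control libraries, where 17.6% of all genes tested did not overlap. The restriction libraries were below in that 1 chain (background 9.60%) and above in 0 chains (background 7.97%). Over both sets 31 of 39 were above 0 with a median of 0.19, and all 11 fibrillar chains were, with values from 0.04 to 0.91. Leaving out 1 library at a time left 9 to 11 of the 11 fibrillar chains above 0.

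**Figure D5:**
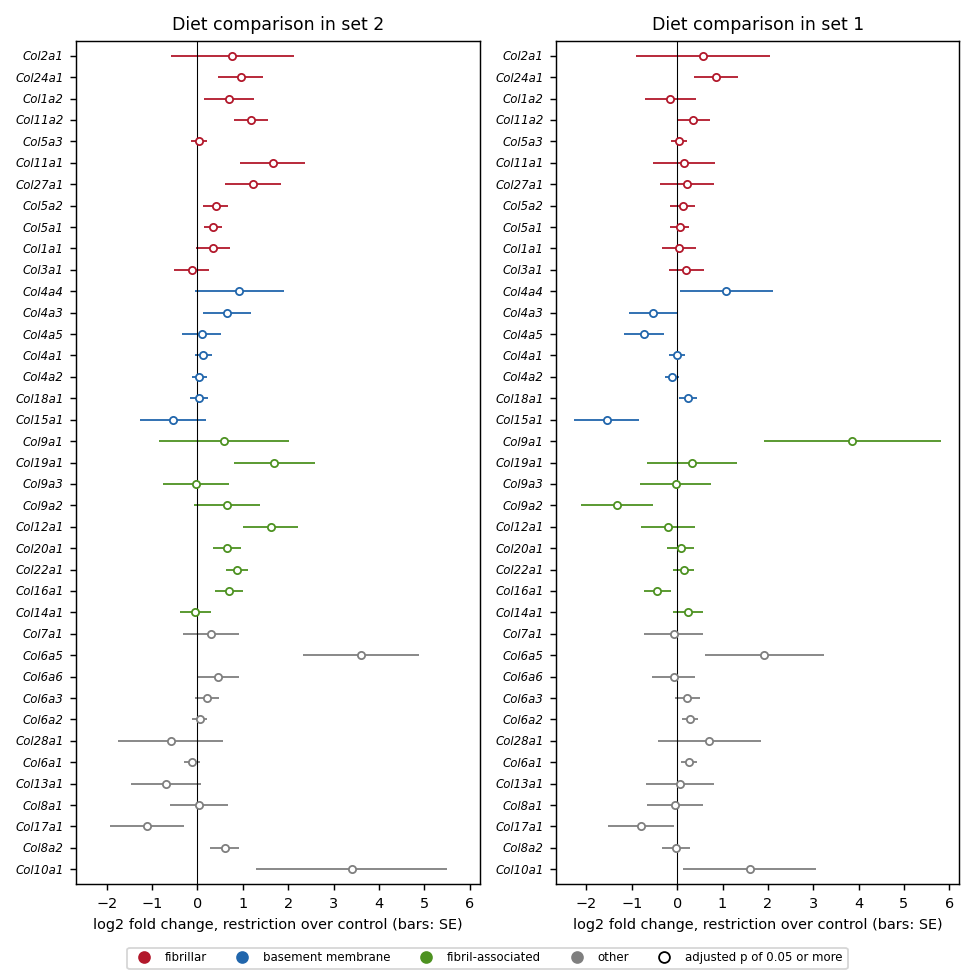
Log2 fold change of each collagen chain, restriction over control (x axis; bars are the SE), in set 2 on the left and set 1 on the right, chains in the order of the set comparison. All points are open, since 0 chains had an edgeR adjusted p under 0.05; the set 2 values lie above 0 for 31 of 39 chains and those of set 1 for 25.

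The smallest p of set 2 belonged to Col22a1, whose 12.8, 19.7 and 23.1 CPM in restriction libraries stood against 12.4, 9.76 and 8.40 CPM in control libraries. Restriction 32 and control 23 almost met. The log2 fold change was 0.87 ± 0.24 (SE, with a raw p of 0.00265 and an adjusted p of 0.46 by edgeR), and 1.03 ± 0.25 without control 23. In set 1 Col22a1 had 0.15 ± 0.23, over both sets 0.51 ± 0.17 and for the difference between sets 0.72 ± 0.33, with adjusted p values of 0.91, 0.49 and 0.52 (edgeR).

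Col11a2, a fibrillar chain that co-assembles into type XI collagen, was next, with 7.75, 8.64 and 10.4 CPM in restriction and 2.52, 5.71 and 3.50 CPM in control libraries of set 2. Its lowest restriction library was above its highest control. The log2 fold change was 1.18 ± 0.37 (SE, with an adjusted p of 0.50 by edgeR), and 0.96 ± 0.39 without control 23. In set 1, where the groups overlapped, Col11a2 had 7.34, 6.87 and 10.1 CPM in restriction and 9.91, 5.76 and 3.44 CPM in control libraries.

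Col11a1, its partner chain, had 1.17, 1.82 and 1.16 CPM in restriction and 0.0536, 0.445 and 0.767 CPM in control libraries of set 2, and 1.66 ± 0.72 as its log2 fold change. Col12a1, a fibril-associated chain of tendon and muscle connective tissue, had 5.33, 7.92 and 9.03 CPM in restriction and 0.322, 1.41 and 5.40 CPM in control libraries of set 2. The 2 groups of Col12a1 met at 5.33 and 5.40 CPM, and control 23 was the lowest library in both genes. Without control 23 the log2 fold changes were 1.18 ± 0.65 for Col11a1 and 1.12 ± 0.46 for Col12a1, where Col12a1 had 1.61 ± 0.61 with it.

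Over both sets Col6a5, which can take the place of Col6a3 in type VI, had 2.76 ± 0.92 (log2 fold change with SE, edgeR adjusted p = 0.50). It had 0.839, 0.857 and 1.35 CPM in restriction and 0.107, 0 and 0.133 CPM in control libraries of set 2, and 0.397, 0 and 0.285 CPM in restriction and 0.0336, 0.148 and 0 CPM in control libraries of set 1. The restriction libraries of set 2 held most of its counts, and the sum over all libraries was 121. In set 1 the smallest p belonged to Col15a1, a basement membrane zone chain, with 0.516, 1.30 and 0.692 CPM in restriction and 5.37, 0.738 and 1.32 CPM in control libraries. Control 3 alone was high: the log2 fold change of -1.56 ± 0.71 became -0.29 without it. Next in set 1 was Col9a1, with 0, 0.461 and 0.163 CPM in restriction and 0, 0 and 0.0264 CPM in control libraries, at or near the limit of what these counts can show. For the difference of the diet effect between sets, Col16a1 had the smallest p, at 1.13 ± 0.44 (an adjusted p of 0.48 by edgeR), from 0.69 ± 0.31 in set 2 and -0.44 ± 0.31 in set 1.

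The genes that make, mature, bind and cleave collagen were read beside the chains. In set 2 against set 1 the background was 19.9% of all genes tested called higher and 19.6% called lower. Of 19 tested genes of collagen folding and modification in the endoplasmic reticulum, 3 were higher and 8 lower in set 2 than in set 1, with a median of -0.03. P4ha1, a prolyl hydroxylase subunit, was higher at 0.64 ± 0.16, as was Mia3, which loads collagen for export, at 0.80 ± 0.11. Plod2, the lysyl hydroxylase that sets cross-link type, fell by 1.23 ± 0.14 on the log2 scale. P4ha3, a scarce gene, fell by 2.24 ± 0.49. Its group means were 0.533 CPM in restriction and 0.237 CPM in control libraries of set 2, and 1.17 and 2.42 CPM in those of set 1. Of 10 genes of processing and cross-linking 0 were higher and 6 lower, with a median of -0.56, led by the lysyl oxidase relative Loxl1, which fell by 2.51 ± 0.19, and by the propeptide-cleaving Adamts2 at -0.61 ± 0.17.

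Of 8 collagen receptors and uptake genes 1 was higher and 2 were lower, close to the 39.5% of all genes tested that were called. Itga1, an integrin subunit that binds type IV collagen well, rose by 2.25 ± 0.54 in set 2, while Itga11, an integrin subunit that binds fibrillar collagen, fell by 1.98 ± 0.30 and Itga10 by 1.80 ± 0.66 on the log2 scale. Itga1 and Itga10 were scarce, with means of the 4 groups from 0.254 to 2.55 CPM and from 0.267 to 1.44 CPM. Of 3 collagen-cleaving proteases tested 2 fell, Mmp2 at -0.68 ± 0.12 and Ctsk at -1.12 ± 0.25. Of 10 basement membrane partners 0 were higher and 4 lower, among them Lama2, the laminin chain of muscle basement membrane, at -0.93 ± 0.13, and Lamb2 at -0.48 ± 0.10. The 4 of 10 partners called were likewise close to the 39.5% of all genes tested. In the diet comparisons 0 genes of these 5 lists were called. The smallest p values within a set were those of Lamb2 at 0.43 ± 0.14 in set 2 (an adjusted p of 0.50 by edgeR) and of Serpinh1, the collagen chaperone, at 0.67 ± 0.22 in set 1 (an adjusted p of 0.53 by edgeR). Over both sets it was that of Bmp1, a protease that trims procollagen ends, at 0.47 ± 0.15 (an adjusted p of 0.49 by edgeR).

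Markers of the cells that could carry these genes were also compared between sets. The background was 39.5% of all genes tested called, 19.9% higher in set 2 and 19.6% lower. Fibroblast and fibro-adipogenic progenitor markers were lower in set 2 in 7 of 9 and higher in 0, with summed levels of 555 to 776 CPM in restriction and 418 to 806 CPM in control libraries of set 2, and 1063 to 1416 CPM in restriction and 1153 to 1398 CPM in control libraries of set 1. Dpt (-1.83 ± 0.12) and Mfap5 (-1.81 ± 0.20) led them. Macrophage markers were lower in 8 of 8, with 52.2 to 103 CPM in set 2 libraries and 190 to 472 CPM in set 1 libraries, and adipocyte markers were lower in 7 of 8, with 143 to 208 CPM in restriction and 154 to 271 CPM in control libraries of set 2, and 254 to 322 CPM in restriction and 307 to 449.6 CPM in control libraries of set 1. Tendon cell markers split, with 2 of 8 higher (Fmod, Kera) and 2 lower (Scx, Tnmd). Endothelial markers were higher in 3 of 8 and lower in 1, Schwann cell markers in 3 and 2 of 8, and smooth muscle and pericyte markers in 2 and 4 of 8. None of these lists had a gene at 0 in all libraries. Their part in the collagen values was not tested.

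In the diet comparison tendon cell markers had values above 0 alongside the collagen chains of set 2. All 8 were above 0 in set 2 (median 1.08), in set 1 (median 0.90) and over both sets (median 0.89), and 0 were called. Of all genes tested 48.5% were above 0 in set 2, 49.5% in set 1 and 48.2% over both sets. Their summed level was 282, 424 and 418 CPM in restriction and 206, 135 and 210.5 CPM in control libraries of set 2, and 191, 282 and 369 CPM in restriction and 257, 153 and 139 CPM in control libraries of set 1. The groups of set 2 did not overlap and those of set 1 did. Mkx was at 0 in some libraries. Fibroblast markers had 5 of 9 above 0 in set 2 with a median of 0.09. The lean in sign was not particular to tendon markers. In set 2 basement membrane partners had 10 of 10 above 0 (median 0.13). Processing and cross-linking genes had 9 of 10 (median 0.32), and collagen receptors 7 of 8 (median 0.33). These medians were smaller than the 1.08 of tendon markers. Schwann cell, adipocyte, and smooth muscle and pericyte markers had 5 of 8 each. Endothelial and macrophage markers had 3 of 8 each, and collagen-cleaving proteases 1 of 3. Over both sets Schwann cell markers had 8 of 8 above 0. The part of tendon markers in the collagen values was not tested.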

How the data were processed

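The authors deposited a table of counts, whole numbers not normalised, for all 12 libraries; a table of scaled values was not used. Trimmomatic, HISAT2, featureCounts, DESeq2 and build Rnor_6.0 are named in the submitters' processing notes, with versions, order and annotation not given in the sources used here. Per the labels a TruSeq RNA kit was used, which does not mark strand, so antisense reads count toward a gene.

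Counts were tested with edgeR 4.0.16 (TMM, filterByExpr, glmQLFit and glmQLFTest), with 1 mean for each diet and set over all 12 libraries and p-values adjusted over 14225 genes. Ratios of chains were tested with exact permutation tests. The scripts were tested on simulated data. The alternatives were DESeq2 1.42.0, other scaling, no filter, a replicate block and leaving out libraries. The members and gene lists were chosen with earlier results of these data known. Values by library are given for the 3 chains of each class with the highest mean CPM, for the 3 called chains with the largest log2 fold changes each way between sets, and for the 2 with the smallest p in each diet comparison; Col1a2, Col9a2, Col11a1 and Col12a1 were added after their values were seen. Listed genes were the called ones with the smallest p.

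Counts of the same gene in different libraries share its length, but gene lengths were not used. Collagen chains of similar sequence could share reads, depending on the counting.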

Additional observations from a re-analysis of the deposited data

How the results depend on the processing

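The count of 16 chains called between sets was 17 with DESeq2, 16 with DESeq2 size factors, 14 with library size alone, 12 with no filter, and 10 to 15 when 1 library was left out. It was 9 without control 3 and restriction 13, 8 within the restriction libraries and 8 within the controls, the last 3 chosen after the data were seen. Title numbers of set 1 and set 2 that differ by 20 were treated as a possible pairing. Deviations correlated at 0.079 to 0.175, not above 0.1 in each pair, though each library correlated best with its own number. The replicate block gave 14 chains. It covered the set comparison and the difference of the diet effect between sets. The diet comparison over both sets was not fitted with it and took all libraries as independent, so its errors were not checked for such pairing. The ratio tests also took all libraries as independent and were not repeated with the pairing. The lower Col3a1 to Col1a1 ratio kept its sign when 1 library was left out (-0.61 to -0.48). Without control 3, 8, 9 or 23 its adjusted p was 0.08, where 200 assignments remain. The diet difference of the Col4a1 to Col4a2 log2 ratio ran from -0.0042 to 0.18.

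Signs turned in chains near 0. For Col4a1 between sets they were -0.066 with library size alone and -0.055 without both set 1 libraries, and -0.018 to 0.13 with 1 left out. For diet over both sets, leaving 1 out gave -0.12 to 0.39 for Col3a1, -0.028 to 0.53 for Col1a1, -0.028 to 0.11 for Col5a3, -0.0042 to 0.16 for Col4a1, -0.090 to 0.025 for Col4a2 and -0.020 to 0.36 for Col14a1. Col4a2 was 0.035 with library size alone, a setting that moved the median of all genes from -0.01 to 0.046. None of these diet values passed the test. Depth limits the scarce chains: a count of 0 allows up to 0.161 CPM.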

Other observations

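A further 5 collagen symbols were measured below the minimum. Over the 12 libraries Col25a1 summed to 40 counts, Col4a6 to 31, Col26a1 to 31, Col23a1 to 14 and Col6a4 to 4, too few to compare between groups.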
